A study of Mus musculus with 47 samples.

Results

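Transcripts of 9 genes that mark the oligodendrocyte and astrocyte lineages (Olig1, Olig2, Sox10, Pdgfra, Mbp, Slc1a3, Aqp4, Aldh1l1 and Gfap) were followed in the brains of Daxx mutant mouse embryos. All 9 were found by symbol among the 20456 genes of the count table, and they were examined in 16 of the 47 RNA-seq libraries, those of brain. The brains came from E18.5 embryos of strain C57BL/6, 1 library per embryo, in 4 groups of 4: embryos homozygous for Daxx S226A, their wild-type (WT) littermates, embryos homozygous for Daxx Y130A, and their WT littermates. Daxx is a chaperone of the histone variant H3.3. In the paper's co-immunoprecipitations, the S226A change abolished its binding to H3.3 and the Y130A change its binding to Atrx. The paper allows that the loss in Y130A may be incomplete, because some replicates kept a faint ATRX band. It also reports more Daxx protein in Y130A and less in S226A than in wild type, most clearly in embryonic fibroblasts. Both alleles are knock-in point mutations present in every cell of the embryo and not only in glia, and both lines were made by editing C57BL/6N zygotes. The founders were then backcrossed to C57BL/6J mice, and the embryos came from crosses of heterozygotes. Each of 8 litters gave 1 mutant and 1 WT brain, 4 litters (2972, 2881, 2875 and 2970) with S226A and 4 (2848, 2851, 2974 and 3069) with Y130A.

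Oligodendrocyte precursors arise from ventral and later dorsal progenitors of the neural tube, divide in response to platelet-derived growth factor, and mature into the cells that wrap axons in myelin, most of which forms after birth. Astrocytes arise from radial glia, clear glutamate and potassium from the extracellular space and cover blood vessels with their endfeet. Microglia, the resident macrophages of the brain, enter it early in development, and they release factors such as IGF1 that act on oligodendrocytes. The question addressed was whether transcripts of these 2 glial lineages differed in S226A brain, where microglia transcripts were lower.

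The total count per library lay between 20318413 and 25051861 in the 8 brains of the S226A litters and between 44523912 and 53050330 in the 8 brains of the Y130A litters, so the sets did not overlap in depth. Levels are given as CPM, the reads of a gene per 1000000 reads of its library after TMM scaling, and the 9 glial genes are ranked against each other only per kilobase of exon. A gene was called different at an adjusted p below 0.05 in edgeR's quasi-likelihood test, with Benjamini-Hochberg adjustment over the 16892 genes tested. The p-values rest on the spread between embryos within groups, estimated over all 12 groups of brain, lung and liver together. In 6 of the 16 brain libraries the reads of caudal Hox genes were scarce, as described at the end, and results are given with and without these libraries there. Daxx itself was not called in either mutant, and its transcript cannot check the genotype labels because both alleles leave it in place.

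The 9 genes were first placed by their levels in WT brain, lung and liver, as a description (8, 7 and 8 libraries). Olig1 (ENSMUSG00000046160.6, GRCm38 chr16:91269772-91271933, + strand) and Olig2 (ENSMUSG00000039830.9, chr16:91225457-91228677, +), neighbouring genes for basic helix-loop-helix factors that specify the oligodendrocyte lineage, had a median of 28.8 and 15.8 CPM in brain. Outside the brain, Olig1 reached at most 4 reads in any WT library and Olig2 at most 1. Sox10 (ENSMUSG00000033006.10, chr15:79154908-79165240, −), the factor that turns on myelin genes and is also made by Schwann cells, had a median of 6.05 CPM in brain, 0.844 in lung and 1.03 in liver. Slc1a3 (ENSMUSG00000005360.14, chr15:8634124-8710764, −), the glutamate transporter GLAST of astrocytes and radial glia, had 305.1 CPM in brain, 34.9 in lung and 1.62 in liver. Aqp4 (ENSMUSG00000024411.9, on chromosome 18), the water channel of astrocyte endfeet, had 44.5, 21.7 and 3.41 CPM. For these 5 genes, every WT brain library lay above every WT library of the other tissues.

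The other 4 genes were not highest in brain in this sense. Pdgfra (ENSMUSG00000029231.15, chr5:75152292-75198215, +), the receptor for platelet-derived growth factor on oligodendrocyte precursors and on many fibroblasts, had a median of 107.0 CPM in brain and 363.2 in lung. Aldh1l1 (ENSMUSG00000030088.15, chr6:90486427-90600203, +), a folate enzyme used as a general astrocyte marker, had 89.5 CPM in brain and 327.6 in liver. Mbp (ENSMUSG00000041607.16, on chromosome 18), whose classic product is myelin basic protein, had 36.8 CPM in brain, 32.9 in lung and 40.2 in liver, with overlapping ranges between brain and each of the other tissues. The annotation gives Mbp 16 transcripts, and the locus also makes golli transcripts outside myelin that gene counts do not separate. Gfap (ENSMUSG00000020932.14, chr11:102887336-102900912, −), the intermediate filament of astrocytes, had 14.7 CPM in brain and 14.6 in liver but 0.15 in lung. The brain label was therefore borne out by Olig1, Olig2, Sox10, Slc1a3 and Aqp4. The WT ranges of Pdgfra and Aldh1l1 in brain lay between those of the other tissues and overlapped neither, while the range of Mbp overlapped both and that of Gfap overlapped liver.

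**Figure D1:**
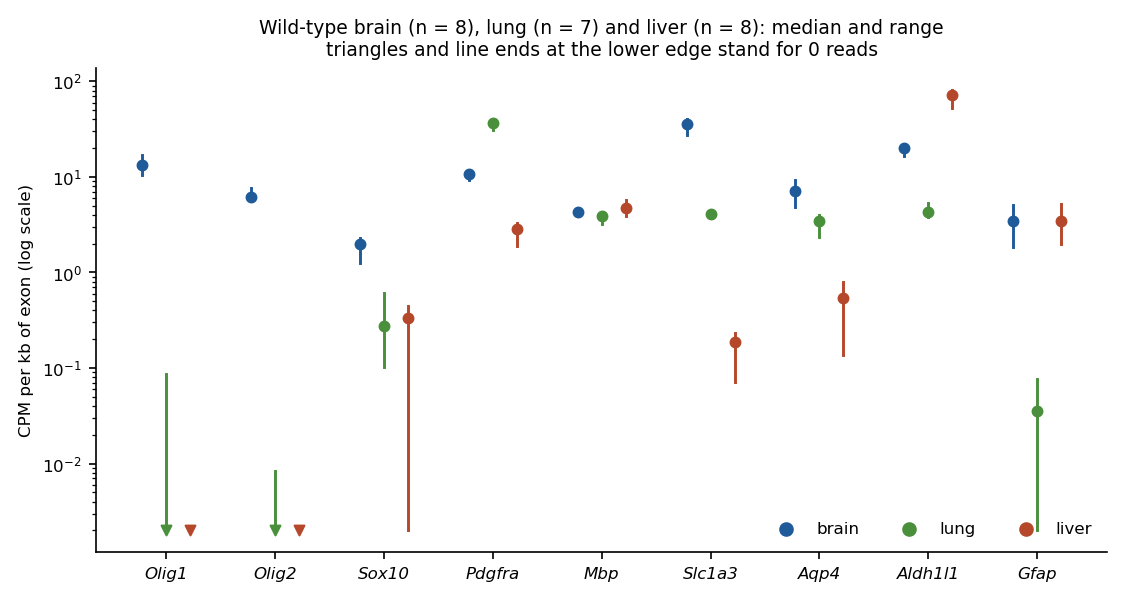
Levels of the 9 genes in WT brain (8 libraries), lung (7) and liver (8), as CPM per kilobase of exon on a log axis; points are medians, lines span the lowest to the highest library, and marks at the lower edge stand for 0 reads. Olig1 and Olig2 had medians of 0 outside the brain, Pdgfra was highest in lung, Aldh1l1 in liver, and Gfap stood at 3.49 in brain and 3.46 in liver.

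Per kilobase of exon, the order in WT brain ran from Slc1a3 (median 35.7 CPM per kb) through Aldh1l1 (19.8), Olig1 (13.3), Pdgfra (10.7), Aqp4 (7.14), Olig2 (6.23), Mbp (4.34) and Gfap (3.49) to Sox10 (1.98). Slc1a3 stood 18.0 times above Sox10. The ranges over the 8 WT brains were apart between Slc1a3 and Aldh1l1, between Pdgfra and Aqp4 and between Olig2 and Mbp, and they overlapped between all other neighbours in this order. Over the 16 brain libraries, Gfap varied most, 2.80-fold from the lowest to the highest library, followed by Aqp4 at 2.14-fold and Sox10 at 1.98-fold. Pdgfra varied least, at 1.37-fold. The fewest reads behind any of these levels were 91, for Sox10.

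Promoter sequences from RefSeq (GRCm38.p6, 250 bases before to 50 after a start site) were given for 5 of the 9 genes, and 3 are printed because they contrast a gene read almost exclusively in brain, the member with the highest level, and a gene with equal levels in brain and liver. Capitals mark matches on either strand to TATAAA (bound by TBP) or TTCNNNGAA (the site of STAT factors, which act on astrocyte genes downstream of the LIF receptor). The windows are Olig2 chr16:91225300-91225599 (+), Slc1a3 chr15:8710758-8711057 (−) and Gfap chr11:102897151-102897450 (−), each written 5′ to 3′ along the gene.
Olig2: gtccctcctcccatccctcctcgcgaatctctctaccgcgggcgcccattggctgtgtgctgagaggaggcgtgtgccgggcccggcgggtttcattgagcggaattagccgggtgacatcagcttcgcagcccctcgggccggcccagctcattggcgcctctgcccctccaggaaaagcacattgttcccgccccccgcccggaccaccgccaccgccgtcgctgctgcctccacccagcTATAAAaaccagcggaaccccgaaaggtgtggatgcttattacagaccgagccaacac
Slc1a3: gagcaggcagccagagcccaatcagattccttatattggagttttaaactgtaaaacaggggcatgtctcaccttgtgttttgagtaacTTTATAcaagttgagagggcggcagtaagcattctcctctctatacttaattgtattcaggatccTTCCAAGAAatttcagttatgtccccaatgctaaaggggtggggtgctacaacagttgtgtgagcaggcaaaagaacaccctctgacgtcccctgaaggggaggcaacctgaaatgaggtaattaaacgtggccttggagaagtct
Gfap: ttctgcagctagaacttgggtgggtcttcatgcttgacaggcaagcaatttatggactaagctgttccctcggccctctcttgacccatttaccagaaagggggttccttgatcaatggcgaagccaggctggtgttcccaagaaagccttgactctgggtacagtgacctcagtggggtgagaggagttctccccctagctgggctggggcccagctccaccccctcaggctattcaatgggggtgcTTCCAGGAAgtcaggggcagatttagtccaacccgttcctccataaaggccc
The Olig2 window held 25 CpG dinucleotides, and those of Slc1a3 and Gfap held 3 each, against a median of 7 over 32817 promoters. TATAAA stood at position 243 of the Olig2 window and, on the other strand, at position 90 of the Slc1a3 window, and 13.6% of all promoters held it. TTCNNNGAA stood at position 155 of the Slc1a3 window and at position 249 of the Gfap window, next to the start site, and 8.29% of all promoters held it. Of the other motifs searched on both strands, the E-box CANNTG (in 72.3% of promoters) was found in the Slc1a3 window at position 207, and neither TTGGCA (NFI, 14.1%) nor ACAAAG (SOX, 18.7%) occurred in any of the 3 windows. The motifs as searched do not overlap each other in the printed windows.

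In S226A brain, 0 of the 9 glial genes were called against WT littermates, where 0.243% of all genes tested were called (41 genes, of which 31 were lower). None of the 9 reached an unadjusted p of 0.05 in edgeR, and DESeq2 also called 0. By the study's stringent criteria (adjusted p below 0.01, log2 fold change beyond 1 in either direction, SE below 1), 0.124% of all genes and 0 of the 9 were called. Their log2 fold changes lay between -0.09 for Mbp and 0.17 for Sox10, with a median of 0.04, beside a median of 0.0027 over all genes tested, and all 9 had an adjusted p of 1. The mutant and WT ranges overlapped for all 9, where they were apart for 2.48% of all genes. RNA of whole tissue does not tell fewer cells of a type from less RNA per cell.

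The values are given below in the order of litters 2972, 2881, 2875 and 2970, mutants first. Olig1 had 27.8, 22.5, 28.1 and 32.6 CPM in S226A and 26.0, 22.5, 27.2 and 32.3 CPM in WT brain. The 2 sets of values followed each other litter by litter, and the means were 27.8 ± 4.14 and 27.0 ± 4.07 CPM (SD, n = 4 each). Olig2 had 18.3, 15.02, 12.9 and 16.9 CPM in S226A and 14.4, 14.6, 14.3 and 15.8 CPM in WT, so the mutants lay on both sides of the narrow WT range. Sox10 had 6.47, 5.82, 6.02 and 5.99 CPM in S226A and 3.83, 5.04, 6.23 and 6.48 CPM in WT. Its lower mean in WT (5.39 ± 1.22 against 6.07 ± 0.281 CPM) came from litters 2972 and 2881. The log2 fold change was 0.04 (SE 0.25) for Olig1, 0.10 (SE 0.17) for Olig2 and 0.17 (SE 0.55) for Sox10 (edgeR, adjusted p = 1 for each).

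Pdgfra, the growth factor receptor of precursors, had 128.6, 106.7, 99.98 and 97.8 CPM in S226A and 106.5, 100.8, 116.5 and 118.7 CPM in WT brain. The S226A brains held both the highest and the lowest value. Mbp had 40.4, 33.8, 38.3 and 29.0 CPM in S226A and 36.9, 35.5, 38.7 and 39.6 CPM in WT. The lowest Mbp level of all 16 brains was that of the S226A brain of litter 2970, and WT was higher in 3 of 4 litters. The log2 fold change was -0.03 (SE 0.10) for Pdgfra and -0.09 (SE 0.11) for Mbp (edgeR, adjusted p = 1 for both).

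Among the astrocyte genes, Slc1a3 had 288.8, 261.0, 264.3 and 263.9 CPM in S226A and 237.1, 255.1, 313.2 and 306.0 CPM in WT brain, so the WT values spanned those of the mutants. Aqp4 had 64.7, 41.9, 48.9 and 31.3 CPM in S226A and 31.1, 30.2, 58.1 and 53.7 CPM in WT. Within each genotype Aqp4 differed nearly as much as over all brains, and its means of 46.7 ± 14.0 and 43.3 ± 14.7 CPM (SD, n = 4 each) were close together. Aldh1l1 had 89.3, 80.0, 87.8 and 84.9 CPM in S226A and 74.9, 77.7, 91.9 and 88.9 CPM in WT. Gfap had 20.4, 11.7, 13.55 and 12.97 CPM in S226A and 12.99, 9.45, 21.5 and 17.4 CPM in WT. For each of these 4 genes the mutant was the higher brain in 2 of 4 litters, litters 2972 and 2881. The log2 fold change was -0.04 (SE 0.11) for Slc1a3, 0.11 (SE 0.26) for Aqp4, 0.04 (SE 0.11) for Aldh1l1 and -0.07 (SE 0.27) for Gfap (edgeR, adjusted p = 1 for each).

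In two-sided exact permutation tests on log2(CPM + 1) of single genes, the lowest p among the 9 was 0.4 in S226A, for Sox10, where the smallest p that 4 against 4 libraries allow is 0.0286. The 95% interval of the fold change lay within 1.5-fold in either direction for 6 of the 9 genes and within 2-fold for 8 of 9. Sox10 was the exception, with an interval from 0.520-fold to 2.44-fold. The spread that sets this interval was shared with lung and liver, where Sox10 is rare and variable, and in a fit of the 16 brain libraries alone its log2 fold change was 0.17 with an SE of 0.15. The SE of the 9 genes lay between 0.068 and 0.23 in that fit, in which 0 of them were called.

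**Figure D2:**
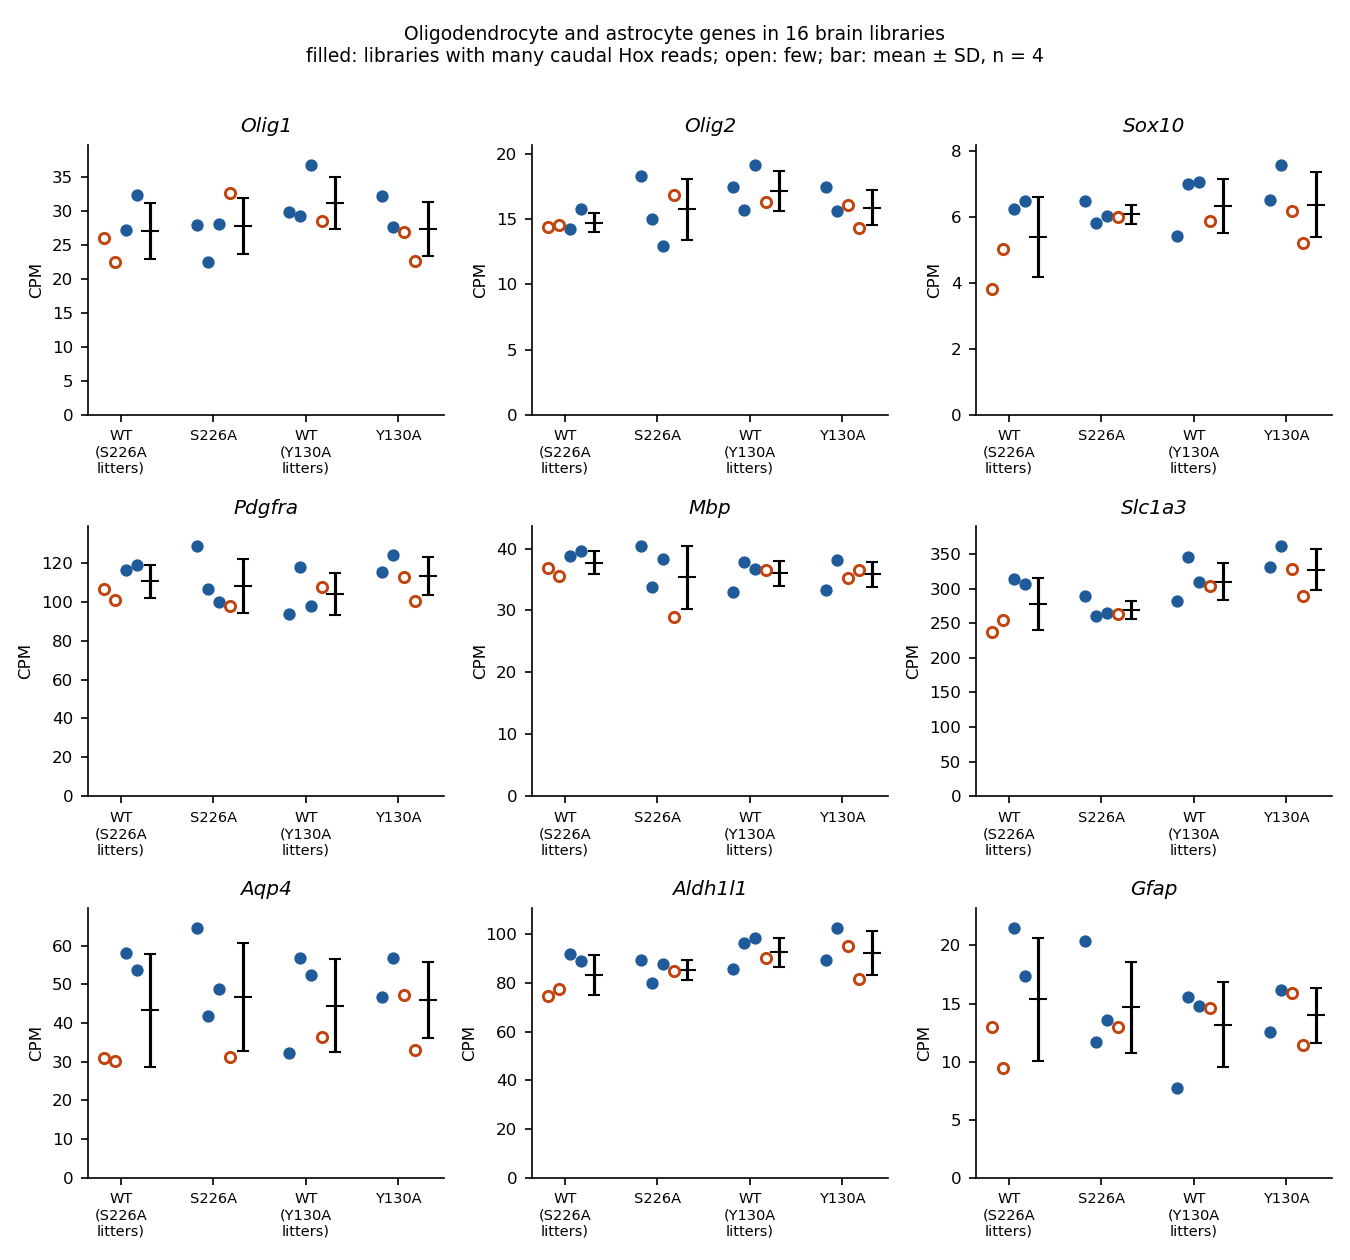
CPM of the 9 glial genes in each of the 16 brain libraries (y axes start at 0), by group; horizontal marks with bars are means ± SD of 4 libraries, and open red points are the 6 libraries with few caudal Hox reads. The mutant and WT points of either set overlap in every panel, and the open points of Aqp4 lie between 30.2 and 47.2 CPM.

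In Y130A brain, 0 of the 9 genes were called as well, beside 0.00592% of all genes (1 gene, Tmem267), and 0% by the stringent criteria. The log2 fold changes lay between -0.19 for Olig1 and 0.12 for Pdgfra, with a median of 0.01, all adjusted p were 1, none of the 9 had an unadjusted p below 0.05 in edgeR, and DESeq2 called 0. The ranges overlapped for all 9, where they were apart for 4.75% of all genes. In the order of litters 2848, 2851, 2974 and 3069, Olig1 had 32.2, 27.6, 26.8 and 22.6 CPM in Y130A and 29.8, 29.1, 36.7 and 28.5 CPM in WT brain. The mutant was lower in 3 of 4 litters, and the log2 fold change was -0.19 (SE 0.25). Olig2 had 17.5, 15.6, 16.1 and 14.3 CPM in Y130A and 17.5, 15.7, 19.2 and 16.3 CPM in WT, nearly equal within litters 2848 and 2851. Sox10 had 6.51, 7.58, 6.19 and 5.21 CPM in Y130A and 5.41, 7.01, 7.04 and 5.87 CPM in WT, with means of 6.37 ± 0.977 and 6.33 ± 0.821 CPM (SD, n = 4 each).

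Pdgfra had 115.1, 123.9, 113.0 and 100.2 CPM in Y130A and 93.7, 117.7, 97.6 and 107.5 CPM in WT brain. It was higher in the mutant in 3 of 4 litters, and its unadjusted p of 0.26 was the lowest of the 9 in edgeR. Mbp was the steadiest gene here, with 33.4, 38.2, 35.3 and 36.6 CPM in Y130A and 33.0, 37.8, 36.6 and 36.5 CPM in WT. Slc1a3 had 331.5, 361.2, 327.9 and 289.3 CPM in Y130A and 281.5, 345.0, 310.1 and 304.2 CPM in WT, higher in the mutant in 3 of 4 litters. Aqp4 had 46.7, 56.7, 47.2 and 33.0 CPM in Y130A and 32.2, 56.8, 52.5 and 36.4 CPM in WT. Aldh1l1 lay between 81.7 and 102.8 CPM in Y130A and between 85.6 and 98.4 CPM in WT. Gfap had 12.6, 16.1, 15.9 and 11.4 CPM in Y130A and 7.70, 15.6, 14.8 and 14.7 CPM in WT, and its lowest value of all 16 brains was the WT brain of litter 2848. The lowest p of the exact permutation test was 0.229 in this set, for Olig2. The 95% intervals lay within 1.5-fold for 6 of the 9 genes and within 2-fold for 8 of 9, again with the exception of Sox10 (0.471-fold to 2.15-fold).

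The difference between the effects of S226A and Y130A was tested directly as an interaction, and 0 of the 9 genes were called (0.0829% of all genes, 14 genes), with 0 at an unadjusted p below 0.05 (2.285% of all genes) and 0 called by DESeq2. The differences lay between -0.15 for Gfap and 0.22 for Olig1 on the log2 scale. The WT brains of the S226A litters were also set against the WT brains of the Y130A litters, which differ in depth. There 5.98% of all genes were called (1010 genes) but 0 of the 9 glial genes, with log2 differences between -0.23 for Sox10 and 0.22 for Gfap. An unadjusted p below 0.05 (edgeR) was found for 0 of the 9 and for 18.4% of all genes. The number of the 9 called was 0 in DESeq2 also. It was 0 in the fit of the 16 brain libraries alone, which called 4241 of 15542 genes between these WT groups.

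**Figure D3:**
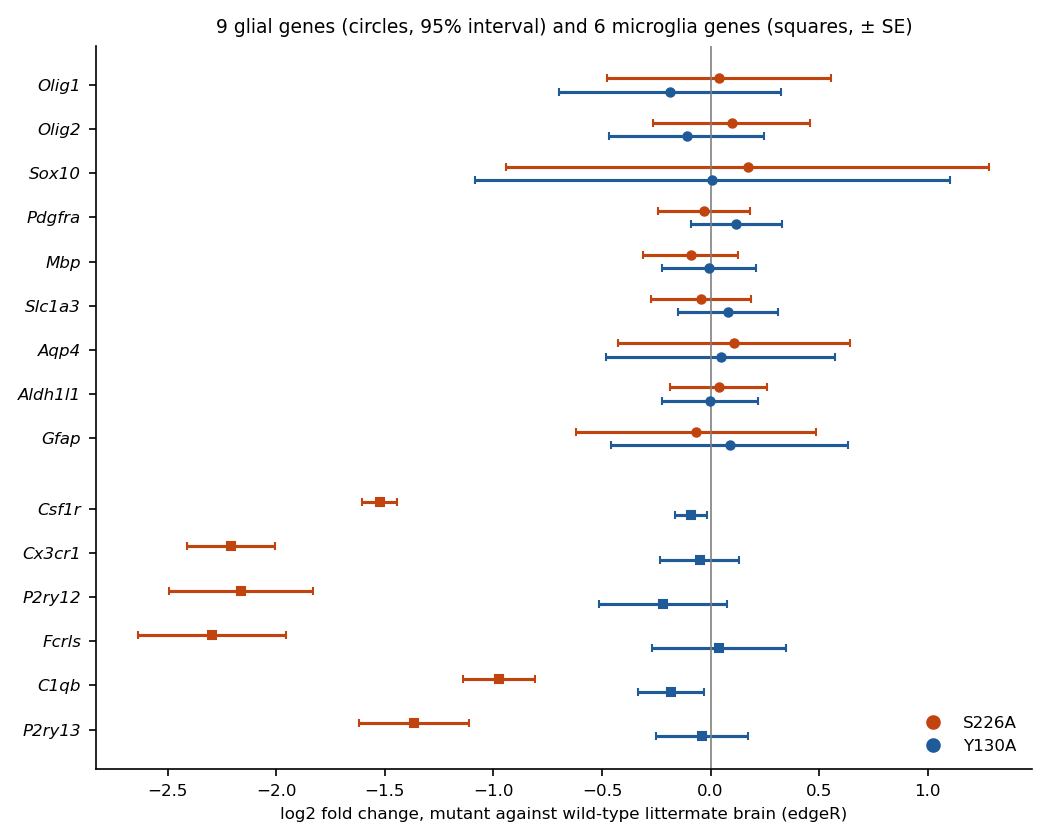
Log2 fold changes (x axis) of the 9 glial genes with 95% intervals and, below them, of the 6 microglia genes with the lowest p in S226A of the 22 listed, with standard errors, for S226A (red) and Y130A (blue) against WT littermate brain. The glial genes lie between -0.19 and 0.17 and every interval spans 0, whereas the 6 microglia genes lie between -2.29 and -0.97 in S226A, where all 22 ranged from -4.85 to -0.14.

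Other genes of the same lineages, of radial glia, and 34 genes of signalling that acts on glia were examined through 5 lists. The lists held 117 genes, 115 of which passed the filter on low counts. In S226A brain 0 of the 115 were called (0.243% of all genes), with 1 at an unadjusted p below 0.05 (edgeR), and in Y130A brain 0 were called (0.00592% of all genes), with 0 below 0.05. The unadjusted counts are 0.87% and 0% of the 115, beside 2.27% and 2.22% of all genes in the same fit. In the fit of the 16 brains alone, 112 genes of the lists were tested and 0 were called, and the shares below 0.05 were 0.893% and 5.36% beside 4.69% and 9.44% of all genes. DESeq2 called 0 in both. The gene with an unadjusted p of 0.0288 in S226A was Erbb3, the neuregulin coreceptor, named after its value was seen, with 3.40 ± 0.901 CPM in S226A and 2.45 ± 0.792 CPM in WT brain (log2 fold change 0.46, adjusted p = 1). The interaction called 0 of the 115.

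Of 18 genes of oligodendrocyte precursors, 0 were called in either mutant, and the median log2 fold change was 0.04 in S226A and 0.02 in Y130A. Ptprz1, a receptor phosphatase, had 512 ± 19.8 CPM in S226A and 513 ± 47.3 CPM in WT brain, and Vcan, a matrix proteoglycan, had 434 ± 19.6 and 424 ± 8.52 CPM (SD, n = 4 each). Of 24 genes of committed oligodendrocytes and myelin, 22 were tested and 0 were called, with medians of 0.01 and -0.04. The late myelin genes Mog and Opalin did not pass the filter, and Opalin had no read in the 8 brains of the S226A litters. In this list Sirt2, a deacetylase found in myelin, had 54.4 ± 3.12 CPM in S226A and 54.6 ± 2.93 CPM in WT, and Tcf7l2, a factor of maturing oligodendrocytes and thalamic neurons, had 42.6 ± 1.97 and 48.8 ± 12.2 CPM.

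Of 27 astrocyte genes, 0 were called, with medians of 0.01 in S226A and 0.03 in Y130A. Sparcl1, which codes for the secreted protein hevin, had 533 ± 90.3 CPM in S226A and 525 ± 91.6 CPM in WT brain, and Nfib, a factor of gliogenesis, had 423 ± 35.4 and 417 ± 6.38 CPM. Of 14 radial glia genes, 0 were called in either mutant, with medians of 0.05 and -0.06. Fabp7, a fatty acid binding protein of radial glia, had 550 ± 43.4 and 542 ± 34.2 CPM, and Ptn, a secreted growth factor, 465 ± 33.5 and 477 ± 29.1 CPM. Nes and Vim, the filaments nestin and vimentin of radial glia, were called only between the WT groups of the 2 sets (log2 difference -0.44 and -0.27, adjusted p = 0.00739 and 0.0466, edgeR), and these were the 2 of the 115 genes called there, where 5.98% of all genes were called. The count of 2 rests on the fit, since it was 5 in DESeq2, 25 in the fit of the 16 brains alone, 34 with the class of few or many caudal Hox reads as a covariate in that fit, and 0 without the 6 libraries with few caudal Hox reads. It was 1 without the WT brain of litter 2972, 2881, 2875, 2970, 2974 or 3069, each left out alone.

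The last of the 5 lists held 34 ligands, receptors and signal carriers that act on glia, and 0 were called in either mutant. Jak1, a kinase of the gp130 receptors, had 162 ± 10.6 CPM in S226A and 167 ± 12.6 CPM in WT brain, and Igf1r, the receptor for IGF1, had 142 ± 8.68 and 142 ± 7.27 CPM. Igf1 itself had 10.9 ± 1.33 and 11.4 ± 2.19 CPM (log2 fold change -0.07). Pdgfa, the ligand of Pdgfra, had 20.7 ± 2.79 and 22.1 ± 1.89 CPM (log2 fold change -0.09, adjusted p = 1, edgeR).

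Microglia genes were the contrast. Of 22 listed, 11 were lower in S226A brain, where 0.184% of all genes were lower, and the median log2 fold change was -0.99. The list was drawn up with earlier results of these embryos known, so its direction is not independent evidence. Csf1r, the receptor that microglia need to survive, had 8.88 ± 1.25 CPM in S226A and 25.6 ± 0.725 CPM in WT (log2 fold change -1.52), and Cx3cr1, their chemokine receptor, had 2.71 ± 0.336 and 12.5 ± 1.44 CPM (-2.21). The summed level of the 22 genes lay between 76.6 and 86.5 CPM in the 4 S226A brains and between 144 and 162 CPM in their WT littermates. In Y130A brain 0 of the 22 were called, with 1 at an unadjusted p below 0.05 (edgeR), and DESeq2 called 0. The summed levels were 165 to 180 CPM in Y130A and 157 to 193 CPM in WT brain. The interaction, which tests the difference between the 2 effects, called 3 of the 22 (0.0829% of all genes), and 6 in the fit of the 16 brains alone. Between the WT groups 5 of the 22 were called (5.98% of all genes), all lower in the S226A litters. This WT count was 1 to 5 with 1 library left out, and 1 without the 6 libraries with few caudal Hox reads. Without the S226A brain of litter 2970 the count of 11 fell to 6. Lists of neuron, Schwann cell, endothelial, choroid plexus, erythroid, meningeal and caudal neural tube genes had 0 genes called in either mutant (edgeR), with 2 of the 6 meningeal genes in S226A and no gene of the other lists in either mutant at an unadjusted p below 0.05.

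**Figure D4:**
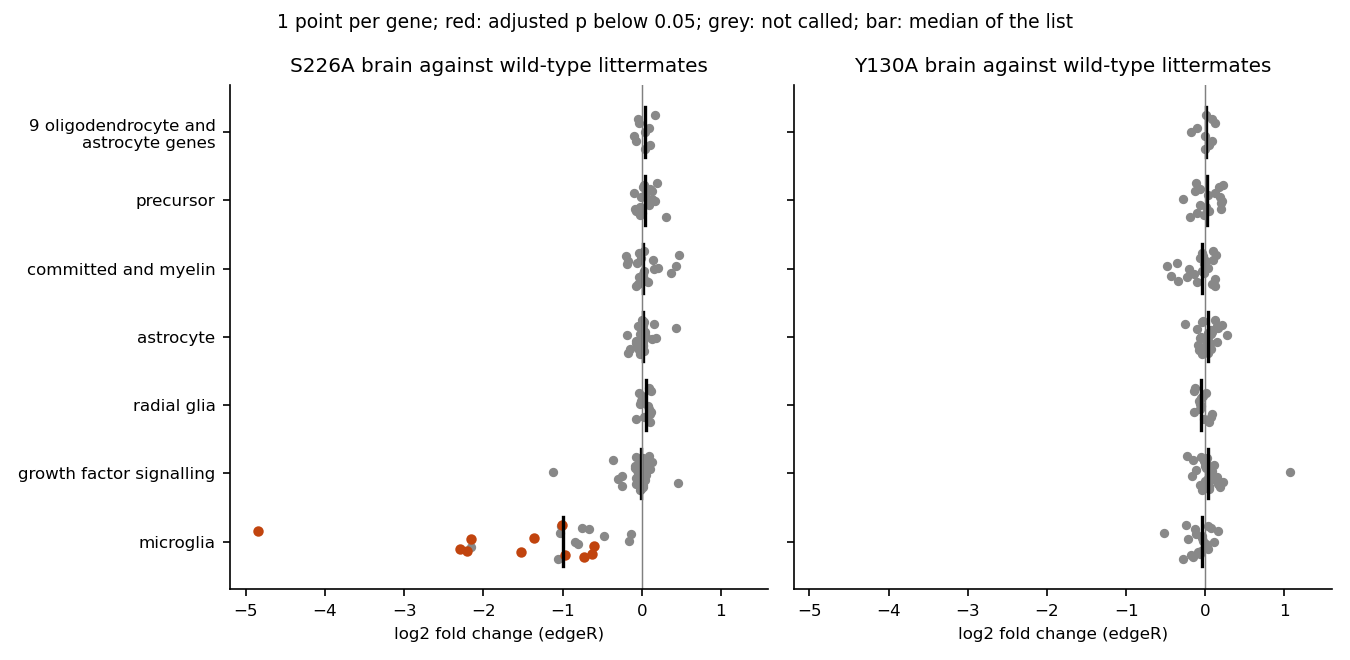
Log2 fold changes (x axis) of the genes in 7 lists (rows, 1 point per gene tested) in S226A (left) and Y130A brain (right) against WT littermates; red points had an adjusted p below 0.05 and black bars are list medians. The 11 red points are microglia genes in S226A, and the 2 isolated grey points near -1.12 and 1.07 in the signalling row are Lif, with group means of at most 0.136 CPM.

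The brain libraries also differed widely in their reads of caudal Hox genes. Hoxa2, Hoxb2, Hoxa3, Hoxb3, Hoxb4, Hoxa5 and Hoxb5 are expressed in hindbrain and spinal cord and not in forebrain. Their summed level was 0.252 to 4.92 CPM in 6 brain libraries and 19.3 to 38.7 CPM in the other 10. The 6 were the S226A brain of litter 2970, the WT brains of litters 2972 and 2881, the Y130A brains of litters 2974 and 3069 and the WT brain of litter 3069, so the split crossed genotype and litter. The split was noticed in the data, so what follows is a description.

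Of the 9 glial genes, Aqp4 had the largest ratio of medians between the 2 kinds of library. Its median was 32.2 CPM in the 6 libraries with few caudal Hox reads and 53.1 CPM in the other 10, a ratio of 1.65. In the 4 litters with 1 brain on either side of the split (2972, 2881, 2970 and 2974), the brain with few caudal Hox reads had the lower Aqp4 level each time, at 31.1 against 64.7, 30.2 against 41.9, 31.3 against 53.7 and 47.2 against 52.5 CPM. In the litters with both brains on the same side, the 2 levels were 48.9 and 58.1 CPM in litter 2875, 46.7 and 32.2 in litter 2848, 56.7 and 56.8 in litter 2851 and 33.0 and 36.4 in litter 3069, mutants first. The WT brain of litter 2848, with low Aqp4 and Gfap levels, had the lowest caudal Hox level of the 10 (19.3 CPM). Others of the 10 did not follow this order. The S226A brain of litter 2972, at 24.25 CPM, had 64.7 CPM of Aqp4 and 20.4 of Gfap. The Y130A brain of litter 2848, at 33.5 CPM, had 46.7 and 12.55 CPM.

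The other glial genes differed less between the 2 kinds of library, with ratios of the medians from 1.03 for Olig2 to 1.17 for Sox10 and Gfap. Within the 4 groups, a library with few caudal Hox reads can be paired with 1 of the others in 14 ways. Of these 14 pairs, the library with few caudal Hox reads was the lower in 12 for Aqp4, Sox10, Slc1a3 and Pdgfra, in 11 for Olig1, Mbp, Aldh1l1 and Gfap, and in 8 for Olig2. The pairs share libraries and are not independent. The summed level of the Schwann cell genes was lower in 14 of 14 pairs (26.9 to 35.8 against 33.3 to 40.7 CPM), that of the erythroid genes in 12 (257 to 516 against 316 to 981 CPM), and the part of these cells and of depth in the glial levels was not tested. The summed level of the microglia genes was lower in 8 of 14. That of the neuron genes was lower in 3 (6473 to 7795 against 6404 to 7540 CPM), and that of the 27 astrocyte genes, none of them among the 9, in 13 (3051 to 3725 against 3301 to 3903 CPM). For the other glial lists it was lower in 10 (precursor), 9 (committed and myelin), 9 (radial glia) and 12 (signalling). For the choroid plexus, meningeal and endothelial genes it was lower in 10, 10 and 6. The choroid plexus sum had a ratio of medians of 1.27. The summed level of 5 forebrain genes (Emx1, Emx2, Dlx1, Dlx2 and Six3), chosen after their values were seen, was lower in 0 of 14 and thus higher each time in the library with few caudal Hox reads (79.2 to 99.9 against 65.1 to 96.2 CPM). How much hindbrain or spinal cord each brain sample held is not given in the sources used here, and its part in the glial levels was not tested.

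**Figure D5:**
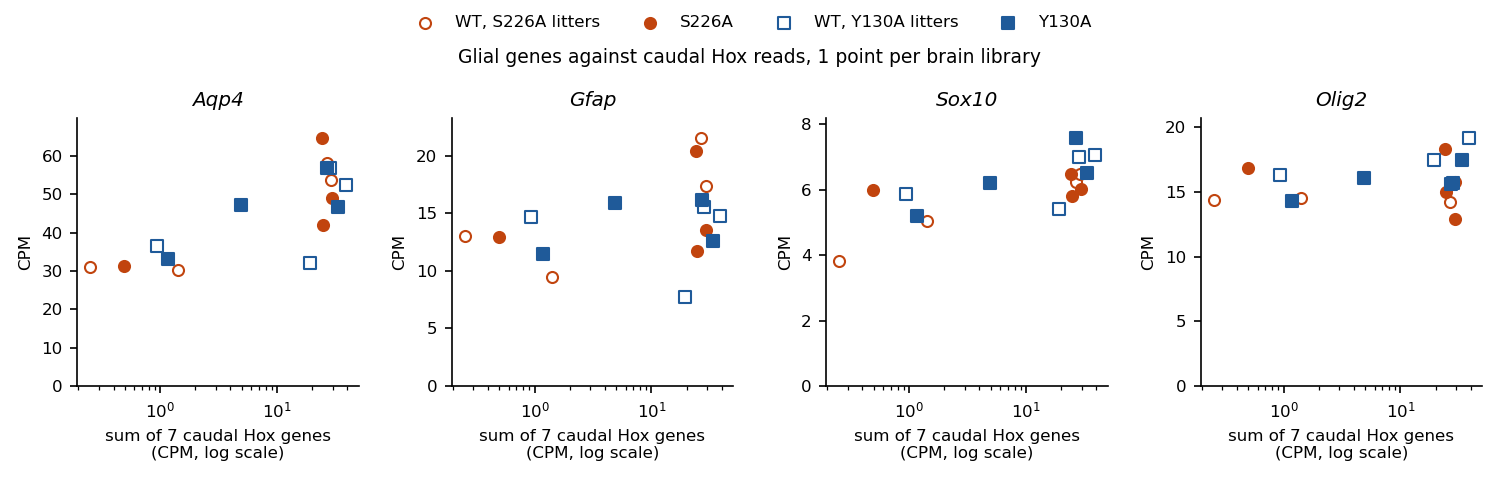
CPM of Aqp4, Gfap, Sox10 and Olig2 (y axes start at 0) against the summed CPM of 7 caudal Hox genes (log axis), 1 point per brain library; circles are the S226A litters, squares the Y130A litters, filled points mutants and open points WT. The 6 libraries left of 10 CPM hold Aqp4 levels of 30.2 to 47.2 CPM, and the 10 on the right 32.2 to 64.7 CPM.

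Without the 6 libraries, 0 of the 9 glial genes were called in S226A (3 against 2 libraries) or Y130A (2 against 3), and 0 had an unadjusted p below 0.05 (edgeR). Of the 17061 genes tested in this fit, 19 were called in S226A and 0 in Y130A, and 324 and 337 had an unadjusted p below 0.05. In S226A the log2 fold changes of the 9 genes then lay between -0.35 for Gfap (SE 0.36) and 0.04 for Olig2 (SE 0.31). Aqp4 passed from 0.11 to -0.11 (SE 0.33), and Olig1, Sox10 and Aldh1l1 also passed from a value above 0 to one below it. A fit of the 16 brains was also run with the class of each library as a covariate (few or many caudal Hox reads, split at 10 CPM). It adjusts for the class and not for the level within a class. There 0 of the 9 were called, and their log2 fold changes lay between -0.12 and 0.12 in S226A and between -0.15 and 0.19 in Y130A. Of the 15542 genes tested in that fit, 47 were called in S226A and 18 in Y130A. Among the 9, 1 gene had an unadjusted p below 0.05, Pdgfra in Y130A brain (log2 fold change 0.15, SE 0.071, adjusted p = 0.373, edgeR). The same held there for 2053 of the 15542 genes.

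The genes whose levels followed the glial genes most closely over the 16 brains were found by Pearson's r of log2(CPM + 1) after subtracting each group's mean, and they are named with no test because the libraries share the split by caudal Hox reads and differ in depth. For Aqp4 these were Serpine2 (r = 0.98), Sparcl1 (0.97) and Aldoc (0.97), and in the 10 libraries with caudal Hox reads the same values were 0.95, 0.62 and 0.60. Sox10 and Slc1a3 led each other's lists (r = 0.94 over 16 and 0.82 over 10 libraries). For Gfap the first was Sv2b, a synaptic vesicle protein (0.95 and 0.84), and for Aldh1l1 it was Lgr4, a receptor for R-spondins (0.92 and 0.25). For Mbp it was App, the amyloid precursor (0.94 and 0.57). Olig1 was followed by Ppp1r3f (0.90 and 0.91) and Olig2 by Tusc1 (0.90 and 0.87), and Olig1 and Olig2 were not among each other's first 3.

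In lung and liver, the same fit was read after the brain values were known. Olig1 and Olig2 had at most 6 reads in any lung or liver library and entered the fit through their brain counts, so they could hardly be called there and are left out of the counts that follow. Of the other 7 genes, Slc1a3 was called in S226A liver, with 0.671 ± 0.170 CPM in S226A and 1.35 ± 0.615 CPM in WT (log2 fold change -0.96, SE 0.30, adjusted p = 0.0282, edgeR), from at most 30 reads per library, where 11.7% of all genes were called. In Y130A liver (0.272% of all genes), S226A lung (1.88%) and Y130A lung (0.0178%) 0 of the 7 were called, with 0 at an unadjusted p below 0.05 (edgeR). Gfap had at most 17 reads per lung library, which limits its comparison there. Liver Aldh1l1, at 345 ± 46.0 CPM in S226A and 332 ± 11.0 CPM in WT, and lung Pdgfra, at 375 ± 16.9 and 359 ± 33.8 CPM, were not called.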

How the data were processed

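Total RNA of flash-frozen brain, lung and liver was extracted with Trizol and sequenced in 47 libraries, and strand use in counting is not given in the sources used here. The authors trimmed reads with Trim Galore 0.6.5 (quality by FastQC 0.11.5), aligned them to GRCm38 with STAR 2.6.0b and deposited whole-number read counts per gene without normalization, the single unit used here. Counts on a gene and on an antisense gene may therefore be mixed; the annotation places genes on the opposite strand within Olig1, Pdgfra, Mbp, Aqp4, Aldh1l1 and Gfap. Positions, exon lengths and transcripts come from GENCODE M21, which held 20424 of the 20456 gene IDs.

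Counts were fitted with edgeR 4.0.16 in R 4.3.3 (TMM, filterByExpr with a minimum count of 10 and a minimum total of 15, quasi-likelihood F-test, 12 group coefficients, all 47 libraries), leaving 16892 genes. The SE is the size of the log2 fold change over the square root of F. The script was tested on simulated counts. Exact permutation tests were two-sided, in Python 3.11.15 with scipy 1.17.1, on log2(CPM + 1). No 2 brain replicates were copies (lowest chi-square per degree of freedom 4.09 over 24 pairs).

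The 9 genes and all lists were chosen with earlier results of these data known. Named from each list were the genes called in a brain comparison, up to 6 with the lowest p, and the 2 with the most reads (mean CPM, not per length) in WT brain; of these, values are given for the glial lists and for 2 microglia genes. For likeness, the 3 genes with the highest r per gene were found. Some results are not reported here. Erbb3, Igf1, Pdgfa, Lif, Mog, Opalin and Tmem267 fall outside this rule and were named after their values were seen. Alternatives were DESeq2 1.42.0, RLE size factors, no filter, fits of the brain or compared libraries alone, litter as replicate block, the stringent criteria, each library left out in turn, a pseudocount of 0.1 and CPM without TMM. The 2 alternatives on caudal Hox reads (libraries below 10 CPM left out, or the class below 10 CPM or not as covariate) and the lung and liver tests were added after seeing the data.

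Replicate numbers of the brains stand for litters, which the titles give and from which the study matched mutant and WT embryos. Deviations from the group means of littermates correlated at 0.0251, 0.221, 0.177 and -0.0524 in litters 2972, 2881, 2875 and 2970, and at 0.355, 0.469, 0.223 and 0.37 in litters 2848, 2851, 2974 and 3069. Counts of reads are not of identified molecules.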

Additional observations from a re-analysis of the deposited data

Results flagged for a closer look

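Dixon's ratio was taken in 44 groups of 4 libraries, and 3 of them held a library far from the other 3, and chance flags about 1 in 20 groups. Olig1 reached 36.7 CPM in the WT brain of litter 2974, while the other 3 WT brains of the Y130A litters had 28.5 to 29.8 CPM. Slc1a3 reached 288.8 CPM in the S226A brain of litter 2972, above 261.0 to 264.3 CPM in the other 3 S226A brains. Gfap was at 7.70 CPM in the WT brain of litter 2848, below 14.7 to 15.6 CPM in the other 3 WT brains of its set.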

How the results depend on the processing

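The number of the 9 glial genes called was 0 under all alternatives run, in each of the 4 comparisons. The number with an exact permutation p below 0.05, tested in S226A and Y130A only, was 0 also with a pseudocount of 0.1 and with CPM without TMM scaling. For the 115 genes of the 5 glial lists it was 0 in S226A, in Y130A and in the interaction under all alternatives. Of 288 recomputed log2 fold changes of the 9 genes, 245 kept their sign, and the largest in size was 0.35 below 0 (Gfap in S226A without the 6 libraries with few caudal Hox reads). The reported values of those that changed sign lay between -0.07 (Gfap in S226A) and 0.17 (Sox10 in S226A). Depth was lowest for Sox10, with 91 to 408 reads per brain library.

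Litter as replicate block changed no call of the 9 genes (0 in S226A, Y130A and the interaction) and moved no count by over 1.5 times, with 11 microglia genes and 36 genes in all in S226A and 1 gene in all in Y130A.

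Without the 6 libraries with few caudal Hox reads, 4 microglia genes and 19 genes in all were called in S226A, 0 genes in Y130A, 2 in the interaction, and between the WT groups 144 genes in all, 0 of the glial lists and 1 microglia gene. In S226A brain the log2 fold change was then -0.19 for Olig1, -0.058 for Sox10, -0.11 for Aqp4 and -0.077 for Aldh1l1, and in Y130A brain it was 0.041 for Aldh1l1; fewer samples enter this fit. With the class of few or many caudal Hox reads as covariate, it was -0.012 for Aqp4 in S226A and 0.023 for Mbp and 0.028 for Aldh1l1 in Y130A, and 18 genes were called in Y130A, 6 microglia genes in the interaction, and 4538 genes in all and 34 of the glial lists between the WT groups. The fit of the 16 brains called 8 genes in Y130A, 6 microglia genes in the interaction, and 4241 genes and 25 of the glial lists between the WT groups. The fit of the compared groups alone called 4 genes in Y130A, and 3771 genes and 25 of the glial lists between the WT groups. DESeq2 called 62 genes in S226A, 6 in Y130A, 26 genes and 5 microglia genes in the interaction and 5 of the glial lists between the WT groups. In Y130A it gave 0.0050 for Mbp and 0.0076 for Aldh1l1, as did RLE size factors (0.0050 and 0.0076), which called 3 microglia genes between the WT groups. Without the filter on low counts Aldh1l1 in Y130A was at 0.0013, and 1 gene of the glial lists was called between the WT groups. The stringent criteria called 6 microglia genes and 21 genes in S226A and 0 in Y130A. In place of the ratio of 18.0 per kilobase, Slc1a3 stood 50.4 times above Sox10 in CPM. The cause of these differences was not tested.

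Leaving out 1 library at a time gave 6 (without the S226A brain of litter 2970) to 12 microglia genes and 30 to 41 genes in all in S226A. It gave 0 (without the Y130A brain of litter 2974 or the WT brain of litter 2851 or 3069) to 1 gene in Y130A and, in the interaction, 2 to 3 microglia genes and 9 (without the S226A brain of litter 2970, the Y130A brain of litter 2851 or the WT brain of litter 2972) to 15 genes. Between the WT groups it gave 1 to 2 genes of the glial lists, with 1 of the 2 lost without the WT brain of litter 2972, 2881, 2875, 2970, 2974 or 3069, and 1 to 5 microglia genes (1 without litter 2970, 2 without litter 2875, 2974 or 3069, 3 without litter 2851). It gave 336 (without litter 2974) to 840 genes in all there, with 498 without litter 2970, 550 without 2875 and 639 without 3069. The log2 fold changes in S226A then ranged from -0.047 to 0.14 for Olig1, -0.12 to 0.014 for Pdgfra, -0.11 to 0.018 for Slc1a3, -0.090 to 0.28 for Aqp4, -0.011 to 0.087 for Aldh1l1 and -0.27 to 0.14 for Gfap. Without a change of sign, they ranged from 0.018 to 0.18 for Olig2, 0.038 to 0.27 for Sox10 and -0.16 to -0.0080 for Mbp. In Y130A they ranged from -0.085 to 0.094 for Sox10, -0.045 to 0.028 for Mbp, -0.081 to 0.19 for Aqp4, -0.059 to 0.051 for Aldh1l1 and -0.10 to 0.18 for Gfap. Without a change of sign, they ranged there from -0.27 to -0.095 for Olig1, -0.16 to -0.053 for Olig2, 0.072 to 0.18 for Pdgfra and 0.028 to 0.13 for Slc1a3.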
